A study of Mus musculus with 56 samples.

Results

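The liver transcriptome of mice given low doses of zalfermin and semaglutide together was compared with that of mice given a high dose of semaglutide alone. The members are the 16 livers whose labels name these treatments, 8 in the combination group and 8 in the high-dose semaglutide group, out of 56 livers in 7 groups. All 16 came from male C57BL/6J mice that had been fed the AMLN diet, a diet rich in fat, fructose and cholesterol, for months. They were diet-induced obese (DIO) and entered the study only when a liver biopsy showed steatosis and fibrosis, so metabolic dysfunction-associated steatohepatitis (MASH) was already present. The combination mice received zalfermin at 0.05 mg/kg and semaglutide at 3 µg/kg as separate daily subcutaneous injections for 8 weeks, and the other mice received semaglutide at 120 µg/kg for 8 weeks. The submitters' design text calls the combination one of high doses, whereas the study's methods give the low doses, which are stated here. Vehicle-dosed mice on the AMLN diet (DIO-MASH vehicle) and on chow, 8 of each, serve as reference levels. High-dose zalfermin (0.2 mg/kg), low-dose zalfermin (0.05 mg/kg) and low-dose semaglutide (3 µg/kg) mice on the AMLN diet, 8 of each, serve in further comparisons. The combination and high-dose semaglutide treatments differ both in zalfermin and in the semaglutide dose, and the parts of these in a difference cannot be told apart.

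Zalfermin is a long-acting analog of fibroblast growth factor 21 (FGF21), a hormone that acts through an FGF receptor paired with the co-receptor beta-klotho (Klb). Semaglutide is a glucagon-like peptide-1 receptor agonist that lowers food intake and body weight, and its receptor is scarcely made by hepatocytes. Fatty liver stores triglyceride in droplets coated by perilipins and CIDE proteins. In mice, the male pattern of liver gene expression is kept by pulsatile growth hormone acting through STAT5B.

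The 16 libraries held 6850790 to 17810943 assigned reads, and total counts did not differ between the groups beyond the spread of mice (exact two-sided permutation p = 0.596). Of 14105 genes tested, 266 were differentially expressed genes (DEGs, adjusted p under 0.05), a background of 1.89% of genes, with 121 higher in the combination group (0.858%) and 145 lower (1.03%). The median size of the DEG differences was 1.58-fold. The 8 livers of one group did not overlap with those of the other in 36 of the 14105 genes (0.255%), and 31 of these were DEGs, 13 higher and 18 lower in the combination group. The labels' sample numbers were grouped into 3 runs, each holding as many mice of one group as of the other, and with the run as a covariate 323 genes were called. The last run spans a gap in the numbers. Split there, its later part would hold high-dose semaglutide mouse 8 and no combination mouse. In a fit of the 16 mice alone 124 genes were called, 116 of them among the 266. Mice differed within the groups: combination mice 4, 5 and 6 stood apart in clock genes, and high-dose semaglutide mice 3 and 4 in Serpina1e, Mup14 and Hsd3b5, described below. Without combination mice 4, 5 and 6, 74 genes were called, 64 of them among the 266, in a group left with 5 mice. Of the 266, 264 kept the sign of their difference in that fit. Some lost calls kept their size, as for Cyp2c37 (1.24 log2 with all mice and 1.305 log2 without these mice). Others shrank, as for Slc30a10 (1.60 and 0.73 log2). Without high-dose semaglutide mice 3 and 4, 434 genes were called, 224 of them among the 266. Both sets of mice were set aside after the data had been seen.

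The groups separated on the second principal component of all 56 livers, computed from the 500 most variable genes. Scores of the 8 combination livers ran from 7.04 to 12.7 and those of the 8 high-dose semaglutide livers from -6.15 to 3.90, so they did not overlap. The difference in means was 11.4 (exact permutation p = 0.00016, the smallest that 8 against 8 can give, adjusted p = 0.00093 over 6 components tested), and it was 12.2, 11 and 10.5 within the 3 number runs. The gene weights of this component were led on the combination side by Cyp2b9, Cyp2a4, Hamp2 and Cyp17a1 and on the other side by Serpina1e, Cyp4a12a, Cyp4a12b and Mup14. Mean scores were 5.08 in high-dose zalfermin mice, -5.58 in DIO-MASH vehicle mice and -4.05 in chow mice. On the first component, which held 48.8% of the variance against 10.3% for the second, the groups differed by 3.69 (exact permutation p = 0.359). When components were built from log2-scaled CPM in place of variance-stabilised counts, the second one differed by 2.44 (exact permutation p = 0.115). Among the 16 livers alone, the first component separated the groups by 11.2 (exact permutation p = 0.00326, adjusted p = 0.00978).

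**Figure D1:**
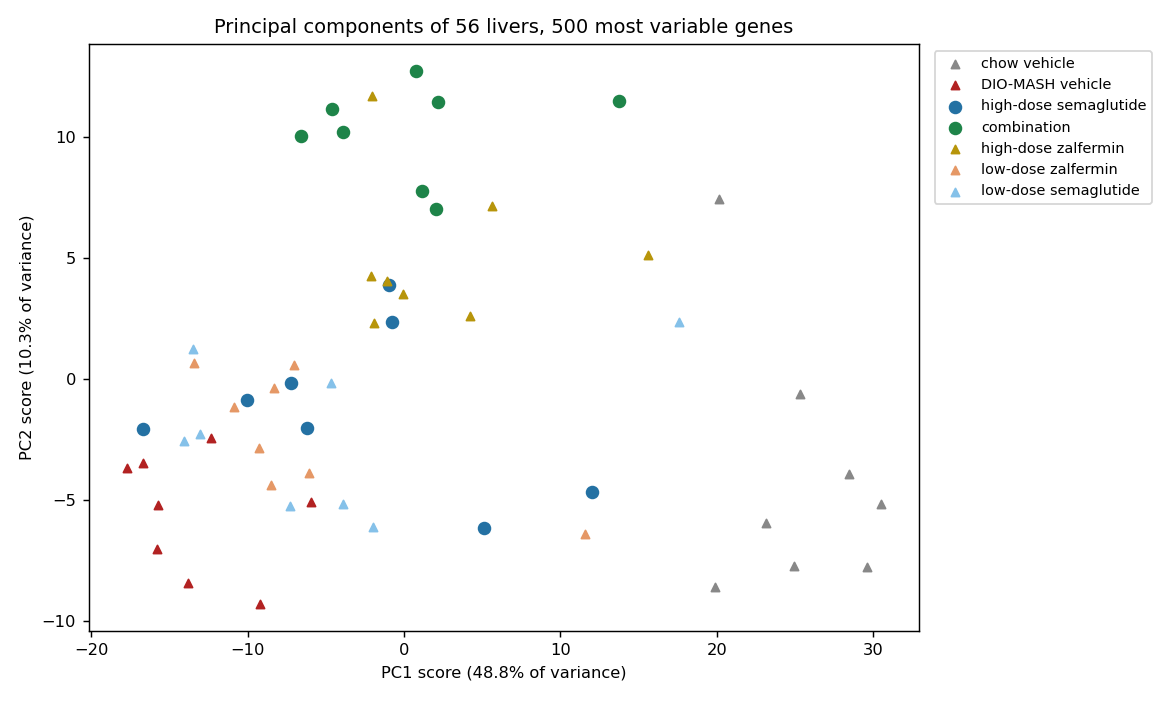
Scores of 56 livers on the first (x axis, 48.8% of variance) and second (y axis, 10.3% of variance) principal components of the 500 most variable genes. Each point is 1 mouse, coloured by group, with circles for the compared groups and triangles for the others; the 8 combination mice lie at 7.04 or above on the second component and the 8 high-dose semaglutide mice at 3.90 or below.

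Genes of lipid droplets were lower in the combination group where they differed. Of 20 droplet protein and lipolysis genes, 6 were lower and 0 higher (1.03% and 0.858% over all genes). The list median was -0.29 log2 against -0.0122 over all genes. Cidea, a CIDE protein that fuses droplets, measured 0.130, 0.154, 0.638, 0.910, 1.16, 1.24, 1.76 and 5.27 CPM (read counts scaled by library size) in the 8 combination livers and 5.58, 10.6, 15.9, 19.7, 21.5, 25.3, 25.7 and 44 CPM in the 8 high-dose semaglutide livers. The highest combination value lay just below the lowest semaglutide value, and the fitted difference was -3.79 ± 0.46 log2 (SE, adjusted p = 2.6e-07). DIO-MASH vehicle livers held 25.3 to 67 CPM and chow livers 0 to 0.832 CPM.

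Cidec, the family member that enlarges droplets, ran from 8.79 through a median of 23.7 to 44.5 CPM in the combination group and from 68.5 through 103 to 162 CPM in the high-dose semaglutide group. These ranges did not overlap either, and the difference was -2.12 ± 0.43 log2 (adjusted p = 0.00281). The gene lies at chr6:113424634-113435760 on the minus strand of GRCm38. The chow range was 0.615 to 13.7 CPM, and 6 of the 8 combination livers lay above it. Mogat1, which makes diacylglycerol for triglyceride synthesis, differed by -0.94 ± 0.26 log2, adjusted p = 0.0473, with 7 of 8 combination livers below the semaglutide range in spite of an overlap. Also lower were the hormone-sensitive lipase gene Lipe (-0.71 ± 0.18 log2, adjusted p = 0.0273) and the fat-packaging genes Fitm2 (-0.67 ± 0.18 log2, adjusted p = 0.0383) and Fitm1 (-0.65 ± 0.18 log2, adjusted p = 0.0469). Antisense genes overlap 12.8%, 15.6% and 11.2% of the exon bases of Mogat1, Lipe and Fitm1, and use of strand in the counting is not given in the sources used here. Lipe, Fitm1 and Fitm2 were called neither without combination mice 4, 5 and 6 (adjusted p = 0.25, 0.0579 and 0.232) nor without semaglutide mice 3 and 4 (adjusted p = 0.0644, 0.0951 and 0.112), whereas Cidea and Cidec were called in both cases. The differences of Lipe, Fitm1 and Fitm2 without combination mice 4, 5 and 6 were -0.57, -0.79 and -0.57 log2. Mogat1, Lipe, Fitm1 and Fitm2 were called in 4, 9, 5 and 6 of the 16 fits that left out 1 mouse (highest adjusted p = 0.113, 0.0818, 0.117 and 0.11), and Mogat1 was not called in the fit of the 16 mice alone (adjusted p = 0.157). Among the droplet coats, Plin4 had a median of 13.3 CPM against 28.7 CPM (-1.31 ± 0.39 log2, adjusted p = 0.0635) and Plin2 one of 515 CPM against 685 CPM (-0.29 ± 0.15 log2, adjusted p = 0.376), neither passing the test. An edgeR fit without low-dose semaglutide mouse 6 called Plin4 (adjusted p = 0.0411) and not Plin2 (adjusted p = 0.332). DESeq2 called neither (adjusted p = 0.0539 and 0.348).

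Cfd, which encodes the complement protease adipsin and is a fat-cell gene, had the largest fall among DEGs with a mean of at least 1 CPM. Its levels were 0 to 1.86 CPM in the combination livers and 1.56 to 25 CPM in the high-dose semaglutide livers, with 7 of 8 combination livers below the semaglutide range, and the difference was -4.38 ± 0.70 log2 (adjusted p = 9.48e-05). The 40 reads of Cfd summed over the combination livers compare with 1009 over the others. The fat-cell markers Adipoq, Lep, Plin1 and Retn were at or near 0 in both groups, with at most 4 reads each summed over 8 livers. Cfd was the 1 called gene of 12 PPARG target and fatty acid uptake genes, against 1.89% called over all genes. Pparg itself had a median of 18.6 CPM against 23.1 CPM (adjusted p = 0.172) and Cd36, a fatty acid importer, one of 267 CPM against 278 CPM (adjusted p = 0.948).

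Oxidation and synthesis genes had few calls. Of 26 genes of fatty acid oxidation and ketogenesis, the omega-hydroxylases Cyp4a14 and Cyp4a10 were higher and Cpt1a, which admits long-chain fatty acids to mitochondria, was lower. Over all genes the called share was 1.89%. Cyp4a14 ran from 902 through a median of 1428 to 2501 CPM in the combination group and from 334 through 553 to 989 CPM in the high-dose semaglutide group (1.39 ± 0.34 log2, adjusted p = 0.0165). Without combination mice 4, 5 and 6 none of the 3 was called by edgeR (adjusted p = 0.0666, 0.292 and 0.424 for Cyp4a14, Cyp4a10 and Cpt1a). Their differences were then 1.41, 0.66 and -0.29 log2. Cpt1a differed by -0.48 ± 0.14 log2, adjusted p = 0.0486, and it was not called without semaglutide mice 3 and 4 (adjusted p = 0.0907). Cyp4a14, Cyp4a10 and Cpt1a were called in 15, 6 and 4 of the 16 fits without 1 mouse (highest adjusted p = 0.0504, 0.186 and 0.141). Of 17 genes of de novo lipogenesis none was called by edgeR or DESeq2, with a smallest edgeR adjusted p of 0.228 and 4 at an unadjusted p under 0.05. The same was true of 24 genes of cholesterol synthesis and uptake (smallest adjusted p = 0.246, 1 at an unadjusted p under 0.05).

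**Figure D2:**
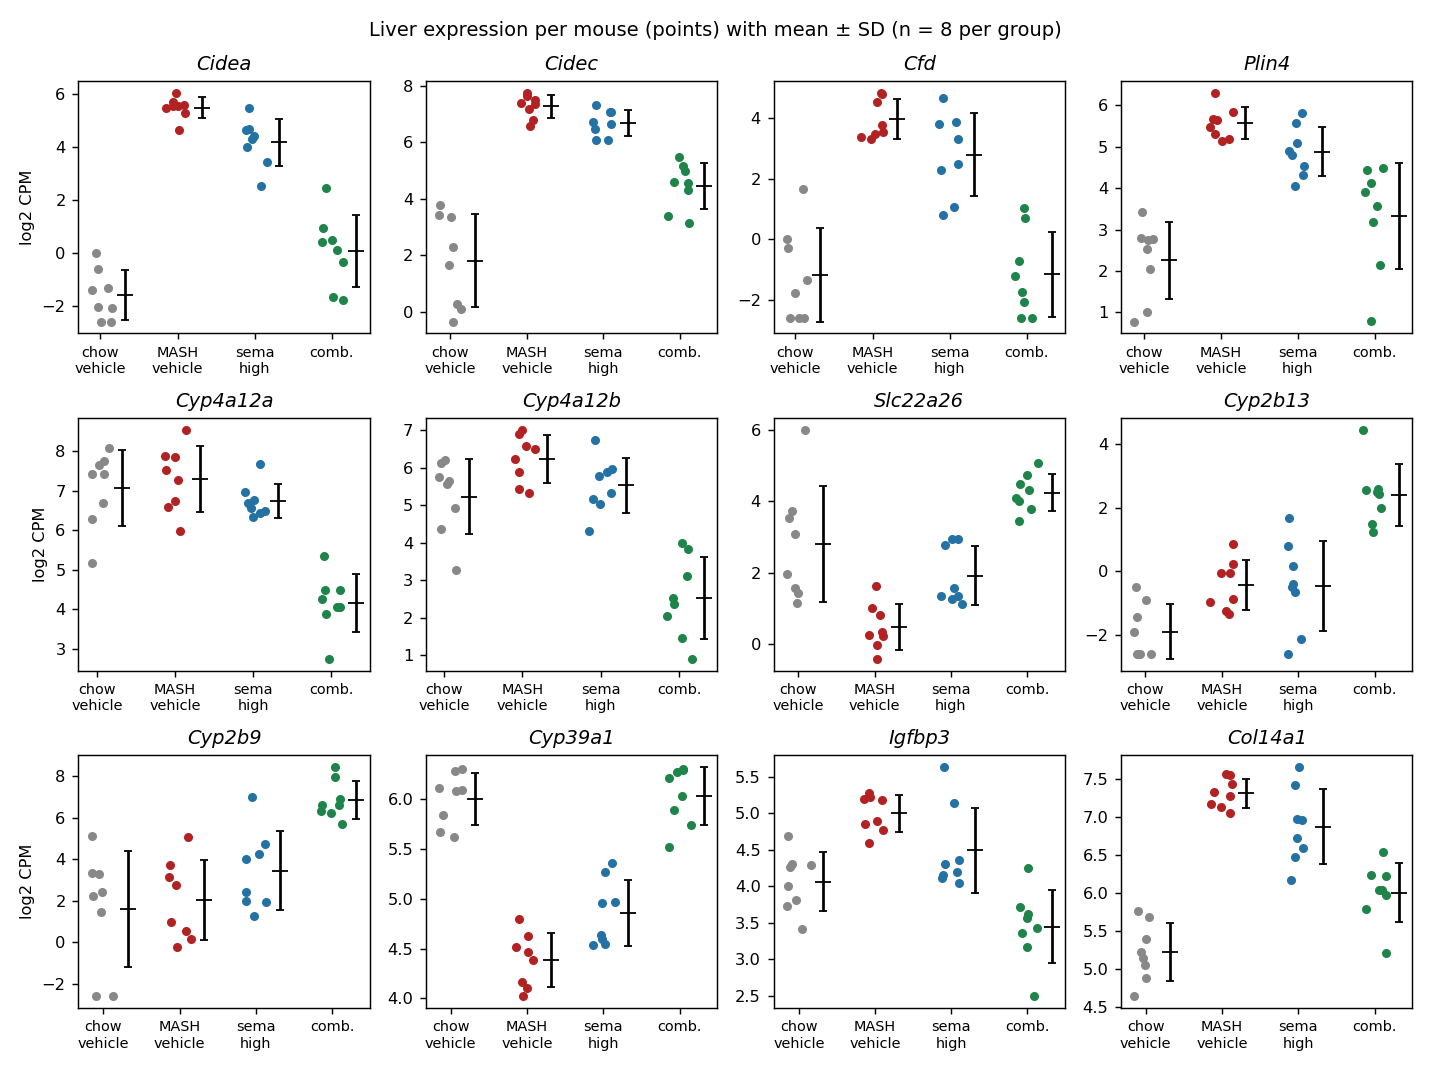
Log2 CPM (y axis) of 12 genes in each of 8 mice per group (x axis: chow vehicle, DIO-MASH vehicle, high-dose semaglutide, combination), with points for mice and black bars for mean ± SD. The combination points of Cidea, Cidec, Cyp4a12a and Cyp4a12b all lie below the high-dose semaglutide points, and those of Cyp39a1 and Slc22a26 all lie above them.

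Sex-biased liver genes differed in opposite directions in these male mice. Of 20 female-biased genes, 5 were higher in the combination group (0.858% over all genes) and 0 lower, with a list median of 1.23 log2. Of 18 male-biased genes, 3 were lower (1.03% over all genes) and 0 higher, with a list median of -0.92 log2. The medians were 1.04 and -1.11 log2 without combination mice 4, 5 and 6, and 1.12 and -0.60 log2 without semaglutide mice 3 and 4. Cyp4a12a, a male-predominant fatty acid hydroxylase, measured 6.51 to 41 CPM (median 17.8) in the combination livers and 80.2 to 205 CPM (median 98.8) in the high-dose semaglutide livers. Its neighbour Cyp4a12b measured 1.70 to 15.8 CPM against 19.7 to 107 CPM, and the groups overlapped in neither gene. The differences were -2.50 ± 0.39 log2, adjusted p = 9.24e-05 and -2.89 ± 0.45 log2, adjusted p = 9.24e-05. The pair lies at chr4:115299046-115332815 and chr4:115411624-115439034 of GRCm38, and 40.8% and 41.3% of their 75-base windows occur in another gene, mostly in each other, so that their reads could be split between them. The third, the complement gene C6, differed by -0.76 ± 0.19 log2, adjusted p = 0.0213, and was not called without combination mice 4, 5 and 6 or without semaglutide mice 3 and 4 (adjusted p = 0.0765 and 0.0622). Its differences in these fits were -0.82 and -0.66 log2. C6 was called in 13 of the 16 fits that omitted 1 mouse (highest adjusted p = 0.0636).

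On the female-biased side, the organic anion transporter gene Slc22a26 separated the groups, at 10.6 to 33.7 CPM against 2.02 to 7.56 CPM (2.25 ± 0.46 log2, adjusted p = 0.00319). Cyp2b13, a female-predominant cytochrome P450, differed by 2.84 ± 0.55 log2, adjusted p = 0.00211, and 16.4% of its windows occur in other genes, mostly the locus Gm45225. Hao2, a peroxisomal hydroxyacid oxidase (1.76 ± 0.50 log2, adjusted p = 0.0469), and Cyp4a10 (0.88 ± 0.25 log2, adjusted p = 0.0466) were also higher. Hao2 was not called without combination mice 4, 5 and 6 or without semaglutide mice 3 and 4 (adjusted p = 0.0956 and 0.095), and Hao2 and Cyp4a10 were called in 6 and 6 of the 16 fits that omitted 1 mouse (highest adjusted p = 0.113 and 0.186). Without these sets of mice the Hao2 differences were 1.89 and 1.58 log2. Cyp2b9 had medians of 96.7 and 10.6 CPM and Cyp2a4 of 90.8 and 13.6 CPM, without passing the test (adjusted p = 0.0577 and 0.0739). DESeq2 called Cyp2b9 and not Cyp2a4 (adjusted p = 0.045 and 0.0639). The same held for edgeR without low-dose semaglutide mouse 6 (adjusted p = 0.0417 and 0.0677).

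High-dose semaglutide mice 3 and 4 held the highest values of the listed male-biased gene Hsd3b5 and of Serpina1e and Mup14, which are in neither sex-biased list. Serpina1e, an alpha-1 antitrypsin gene, stood at 1669.5 and 1239 CPM in those mice, at 39.8 to 418 CPM in the other 6, and at 17.8 to 148 CPM in the combination group. Its difference of -3.20 ± 0.75 log2, adjusted p = 0.0123 became -1.69 log2 (adjusted p = 0.182) without them and was not called without combination mice 4, 5 and 6 (adjusted p = 0.0571). The steroid dehydrogenase gene Hsd3b5 reached 76.8 and 18.9 CPM in the same mice and at most 1.86 CPM in the other 14 (-5.63 ± 1.67 log2, adjusted p = 0.062). Hsd3b5 was called by DESeq2 (adjusted p = 0.00183) and by edgeR without low-dose semaglutide mouse 6 (adjusted p = 0.0317). Without high-dose semaglutide mice 3 and 4 its difference was -0.82 log2 (adjusted p = 0.898). Mup14, which encodes a major urinary protein, stood at 135 and 95.8 CPM in mice 3 and 4, at 5.54 to 32.3 CPM in the other 6 and at 0.620 to 13.6 CPM in the combination group. It differed by -3.05 ± 0.77 log2, adjusted p = 0.021 (adjusted p = 0.153 without those mice and 0.0888 without combination mice 4, 5 and 6), and 79.4% of its windows occur in other genes, mostly Mup9. The Cyp4a12a, Cyp4a12b, Cyp2b13 and Slc22a26 calls held without these mice, without combination mice 4, 5 and 6, and with each of the 16 mice left out in turn. With DESeq2, 8 female-biased genes were higher and 9 male-biased genes lower. In high-dose zalfermin minus DIO-MASH vehicle, made of other mice, the list medians were 1.34 log2 for the female-biased and -0.00372 log2 for the male-biased list.

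Of 14 genes of the growth hormone and insulin-like growth factor axis, 2 were called, against 1.89% of all genes. Igfbp3, which encodes a carrier of IGF1 in blood, was lower at 5.47 to 18.9 CPM against 16.3 to 49.7 CPM (-1.09 ± 0.19 log2, adjusted p = 0.000522), and 7 of 8 combination livers lay below the semaglutide range. Igfbp2, another IGF carrier, was higher at 554 to 858 CPM against 339.7 to 633 CPM (0.59 ± 0.16 log2, adjusted p = 0.0275, and 0.197 without combination mice 4, 5 and 6). Igf1 itself had medians of 474 and 453 CPM (0.02 ± 0.12 log2, adjusted p = 0.965). The leptin receptor gene Lepr had medians of 85.3 and 37.3 CPM (1.12 ± 0.32 log2, adjusted p = 0.0466), and 14.3 CPM in DIO-MASH vehicle mice. Lepr was not called without semaglutide mice 3 and 4 (adjusted p = 0.0686), and Igfbp2 and Lepr were called in 10 and 5 of the 16 fits that left out 1 mouse (highest adjusted p = 0.087 and 0.117).

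The circadian clock is a feedback loop in which Arntl (BMAL1) with Clock or Npas2 activates the Per, Cry, Nr1d1 (REV-ERB alpha) and Dbp genes through E-box sequences. REV-ERB proteins in turn repress Arntl, Npas2, Cry1 and Nfil3 through ROR elements, so that these sets peak at different times of day. Of 18 clock genes, 5 were higher in the combination group (0.858% over all genes) and 0 lower, with a list median of -0.18 log2. DESeq2 called 4 clock genes higher and 2 lower and gave no adjusted p for Npas2. Arntl measured 14.8, 17.6 and 24.4 CPM in combination mice 4, 5 and 6 and 1.04 to 4.66 CPM in the other 5, against 0.524 to 1.53 CPM in the high-dose semaglutide group. The highest value in the other 6 groups was 5.15 CPM, so the 3 mice stood above the other 53. The fitted difference was 3.25 ± 0.51 log2, adjusted p = 9.42e-05, and without the 3 mice it was 1.42 log2 (adjusted p = 0.178).

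The same 3 mice were extreme in other clock genes. Cry1 reached 37, 44.2 and 49.1 CPM in them and 7.02 to 11.5 CPM in the other 5 combination mice, against 7.28 to 14.4 CPM in the high-dose semaglutide group. Nfil3, a repressor, was at 37.1, 32 and 60.2 CPM in mice 4, 5 and 6 and at 12.5 to 23.2 CPM in the other 5, against 9.23 to 21.9 CPM. Npas2 was at 1.55, 1.03 and 7.03 CPM in these mice and at most 0.475 CPM in the other 13. In the opposite direction, Dbp stood at 26, 16.2 and 5.86 CPM in these mice, against 68.8 to 171 CPM in the other 5 and 133 to 195 CPM in the high-dose semaglutide group. Ciart was at 0.310, 0.828 and 0 CPM in them and Nr1d1 at 24.9, 7.35 and 14.3 CPM. The group tests of Dbp, Ciart and Nr1d1 were not passed (adjusted p = 0.233, 0.399 and 0.873). Without mice 4, 5 and 6 no clock gene of the 18 was called by edgeR, and Cry1 and Npas2 changed sign (-0.05 and -0.22 log2, adjusted p = 0.983 and 0.958). Cry1, Nfil3 and Npas2 were called in 7, 8 and 14 of the 16 fits without 1 mouse (highest adjusted p = 0.184, 0.203 and 0.339), and Npas2 was not called without semaglutide mice 3 and 4 (adjusted p = 0.0581). Clock, the other called gene, differed by 0.56 log2 (adjusted p = 0.0373). It was called in 5 of the 16 fits without 1 mouse (highest adjusted p = 0.107). Mouse 4 belongs to one number run and mice 5 and 6 to another. The time of day of sampling of each mouse is not given in the sources used here, and its part was not tested.

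**Figure D3:**
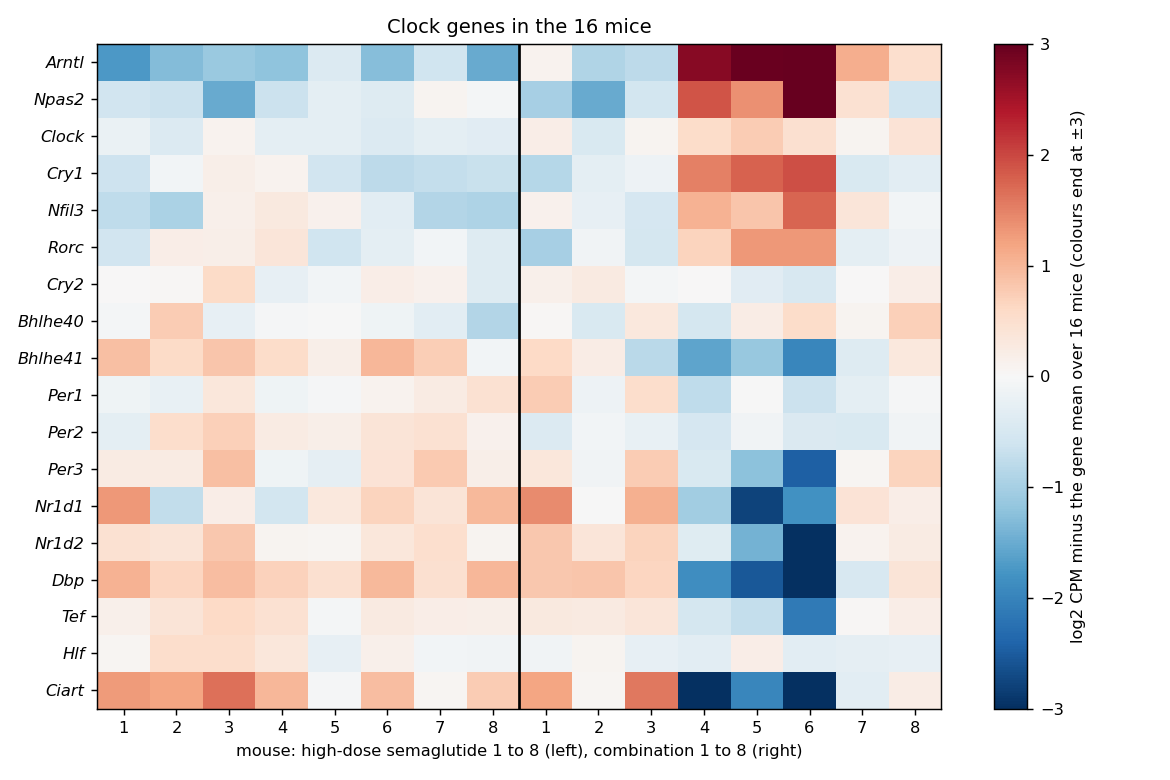
Log2 CPM of 18 clock genes (rows) in the 8 high-dose semaglutide (left) and 8 combination mice (right), minus each gene's mean over the 16 mice, with red above and blue below that mean and colours ending at 3 log2 units. Combination mice 4, 5 and 6 are red in Arntl, Npas2, Cry1 and Nfil3 and blue in Dbp and Ciart, as the values above give them.

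Because Arntl, Cry1 and Nfil3 moved together in these 3 mice, the 250 bases before their RefSeq start sites (GRCm38.p6) are shown with 2 motifs of the loop marked in capitals, searched on both strands: CACGTG, the E-box, and AGGTCA, the half-site read by ROR and REV-ERB proteins, which reads TGACCT on the other strand.
Arntl, chr7:113207215-113207464, plus strand: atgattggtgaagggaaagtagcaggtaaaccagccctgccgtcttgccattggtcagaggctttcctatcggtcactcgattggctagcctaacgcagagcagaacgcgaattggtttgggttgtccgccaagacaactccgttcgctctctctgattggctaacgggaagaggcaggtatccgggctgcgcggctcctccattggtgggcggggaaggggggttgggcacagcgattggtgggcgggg
Cry1, chr10:85185055-85185304, minus strand: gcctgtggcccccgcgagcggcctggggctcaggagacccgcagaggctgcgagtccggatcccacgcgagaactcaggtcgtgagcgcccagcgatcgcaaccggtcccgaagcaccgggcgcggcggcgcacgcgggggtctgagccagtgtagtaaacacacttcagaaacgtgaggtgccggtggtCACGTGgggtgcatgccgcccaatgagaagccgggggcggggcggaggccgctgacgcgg
Nfil3, chr13:52981040-52981289, minus strand: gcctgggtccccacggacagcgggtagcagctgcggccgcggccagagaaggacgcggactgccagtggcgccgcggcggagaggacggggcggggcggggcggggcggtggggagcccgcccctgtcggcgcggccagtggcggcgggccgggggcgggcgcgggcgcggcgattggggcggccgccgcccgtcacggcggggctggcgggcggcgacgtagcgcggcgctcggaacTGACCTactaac
The Cry1 stretch holds an E-box whose first base lies 60 bases before the start, and the Nfil3 stretch holds TGACCT from 12 bases before it. Neither motif is present in the Arntl stretch. The stretches before another Arntl start site and before Npas2, which are not shown, hold neither motif as well. Only exact matches within these 250 bases were searched. ROR elements with other bases, or lying across or beyond the ends of a stretch, would be missed, so their absence is not shown. AGGTCA occurs in 14% and CACGTG in 6.02% of 32851 such upstream stretches in the mouse table.

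Bile acid and drug metabolism genes were higher where edgeR called them. Cyp39a1, a hydroxylase that acts on 24-hydroxycholesterol, had the smallest adjusted p among the genes that were higher. It measured 45.5, 53.2, 59, 65.3, 73.6, 77.2, 77.8 and 78.4 CPM in the combination livers and 23.1, 23.2, 24, 24.6, 30.8, 31.2, 38.3 and 40.9 CPM in the high-dose semaglutide livers. The groups did not overlap (1.17 ± 0.14 log2, adjusted p = 2.6e-07), and the chow range was 49 to 78.4 CPM and the DIO-MASH vehicle range 16.1 to 27.6 CPM. Of 16 bile acid synthesis genes, Akr1d1, which reduces the steroid ring of bile acid precursors (0.79 ± 0.17 log2, adjusted p = 0.0055), and Cyp2c70, which makes muricholic acids (0.79 ± 0.22 log2, adjusted p = 0.0422), were higher. The rate-limiting enzyme gene Cyp7a1 had medians of 142 and 146 CPM (-0.43 ± 0.35 log2, adjusted p = 0.641), and Cyp8b1, which sets the cholic acid share, of 165 and 288 CPM (adjusted p = 0.343). Of 13 transporters, Slco1a4, an organic anion importer, was higher (0.88 ± 0.22 log2, adjusted p = 0.0195, and 0.0619 without semaglutide mice 3 and 4). DESeq2 called 1 transporter higher and 1 lower. The lowest difference among the transporters was -2.37 log2, without a call by edgeR. Among all 47 tested genes of cytochrome P450 families 1 to 3, a set taken after the values were seen, 8 were higher and 0 lower (0.858% and 1.03% over all genes). One of them, Cyp2c37, had medians of 392 and 145 CPM (1.24 ± 0.35 log2, adjusted p = 0.0478), and 13.8% of its windows occur in other genes. Without combination mice 4, 5 and 6, Akr1d1, Cyp2c70 and Cyp2c37 were not called (adjusted p = 0.152, 0.325 and 0.13). Their differences were then 0.58, 0.59 and 1.305 log2. Cyp39a1, which is not in the bile acid synthesis list, was still called without these mice (1.18 log2, adjusted p = 6.83e-06). Cyp2c70, Cyp2c37 and Slco1a4 were called in 6, 5 and 14 of the 16 fits with the loss of 1 mouse (highest adjusted p = 0.125, 0.162 and 0.0733).

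Several genes for proteins that hepatocytes secrete, or that handle nitrogen, were modestly higher. Over all genes, 0.858% were called higher and 1.03% lower. Of 19 apolipoprotein and lipoprotein genes, 3 were higher and 0 lower. Apom, which carries sphingosine 1-phosphate on HDL, measured 154 to 189 CPM against 84.3 to 144 CPM, without overlap (0.54 ± 0.12 log2, adjusted p = 0.00609). The others were Lcat, which esterifies HDL cholesterol (0.47 ± 0.11 log2, adjusted p = 0.0149), and Tm6sf2, which helps to lipidate VLDL (0.62 ± 0.16 log2, adjusted p = 0.0289). Of 20 acute phase genes, Itih4 (0.74 ± 0.18 log2, adjusted p = 0.0181) and Serpina3n (0.73 ± 0.21 log2, adjusted p = 0.0466) were higher. Of 40 coagulation and complement genes, a list drawn up after the values were seen, 7 were higher and 1, C6, was lower. Agt, encoding angiotensinogen, did not overlap between the groups, at 728 to 1058 CPM against 430.1 to 689 CPM (0.50 ± 0.12 log2, adjusted p = 0.0108). Of 35 urea cycle and amino acid genes, 3 were higher: Asl (0.61 ± 0.15 log2, adjusted p = 0.0158) and Ass1 (0.59 ± 0.17 log2, adjusted p = 0.0466), which make arginine in the urea cycle, and Gnmt, which consumes S-adenosylmethionine (0.69 ± 0.18 log2, adjusted p = 0.0279). For Ass1, 32.6% of windows occur in another annotated gene, mostly Gm5424. Without combination mice 4, 5 and 6 no gene of the lipoprotein, acute phase, urea cycle or bile acid synthesis lists was called by edgeR, and Agt was not called (adjusted p = 0.154, and 0.0765 for Apom). Cyp39a1, which is in none of these lists, was still called (adjusted p = 6.83e-06). Tm6sf2 and Serpina3n were not called without semaglutide mice 3 and 4 (adjusted p = 0.0689 and 0.0838). Lcat, Tm6sf2, Itih4, Serpina3n, Asl, Ass1 and Gnmt were called in 14, 11, 13, 6, 14, 6 and 9 of the 16 fits that left out 1 mouse (highest adjusted p = 0.0576, 0.113, 0.111, 0.32, 0.0625, 0.139 and 0.0967). The high-dose semaglutide medians of Apom, Lcat, Tm6sf2, Itih4, Agt, Asl, Ass1 and Gnmt lay between those of DIO-MASH vehicle and the combination.

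For the FGF21 pathway, Fgfr4, the main FGF receptor of hepatocytes, was higher at 36.1 to 49.2 CPM against 23.4 to 37.2 CPM (0.47 ± 0.12 log2, adjusted p = 0.0242, and 0.183 without combination mice 4, 5 and 6). Klb had medians of 39.4 and 36.7 CPM (0.17 ± 0.14 log2, adjusted p = 0.658), and Fgf21 itself of 2.93 and 2.94 CPM (-0.26 ± 0.38 log2, adjusted p = 0.842). Fgfr1, Fgfr2 and Fgfr3 differed by -0.28 ± 0.23, 0.07 ± 0.17 and 0.02 ± 0.24 log2 (adjusted p = 0.636, 0.913 and 0.989). Of 15 feedback genes of ERK signalling none was called by edgeR or DESeq2 (smallest edgeR adjusted p = 0.272, 1 at an unadjusted p under 0.05). Of 48 liver genes that the study's text singles out, a list the study chose on these samples, 4 were called, against 1.89% of all genes. Fgfr4, Slco1a4 and Atf4, a transcription factor of the amino acid response (0.50 ± 0.13 log2, adjusted p = 0.0216), were higher, and Mtor, encoding a nutrient-sensing kinase, was lower (-0.38 ± 0.10 log2, adjusted p = 0.0244). Without combination mice 4, 5 and 6 Atf4 and Mtor were not called (adjusted p = 0.175 and 0.149), and Fgfr4, Atf4 and Mtor were called in 12, 11 and 8 of the 16 fits that left out 1 mouse (highest adjusted p = 0.0866, 0.0733 and 0.0861). Of 21 genes of the ATF4 and amino acid response, Atf4 alone was called by edgeR. Of 21 endoplasmic reticulum chaperone and sensor genes none was called by edgeR or DESeq2, with 11 at an unadjusted p under 0.05, and 19 had a positive difference (list median 0.31 log2).

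Few matrix genes were called by edgeR: 1 of 25 collagen chains, 1 of 30 matrix glycoproteins and proteoglycans, and none in 2 further lists. Over all genes the share called was 1.89%. The called genes, Col14a1 and Postn, were both lower in the combination group. DESeq2, which called 415 genes in all, called 3 collagen chains and 3 matrix glycoproteins or proteoglycans, all lower. Of 25 collagen chains, 21 had a negative difference, with a list median of -0.59 log2. Col14a1, a fibril-associated collagen, measured 36.9 to 93.2 CPM (median 65.9) in the combination livers and 72 to 203 CPM (median 115) in the high-dose semaglutide livers, with 5 of 8 combination livers below the semaglutide range (-0.90 ± 0.17 log2, adjusted p = 0.00211). Col3a1, a main fibrillar chain, had medians of 76.1 and 123 CPM and missed the threshold (-1.07 ± 0.31 log2, adjusted p = 0.0527). It was called by DESeq2 (adjusted p = 0.0297) and by edgeR without low-dose semaglutide mouse 6 (adjusted p = 0.0242). With 1 compared mouse left out, it was called in 6 of 16 fits (highest adjusted p = 0.255). Col1a1 had medians of 57.3 and 91.3 CPM (-0.88 ± 0.37 log2, adjusted p = 0.238), with 30.4 to 239 CPM among the semaglutide mice. Of 30 matrix glycoproteins and proteoglycans, Postn, encoding periostin, was lower (-0.97 ± 0.26 log2, adjusted p = 0.03, and 0.164 without semaglutide mouse 7 and 0.0933 without combination mice 4, 5 and 6). Postn was called in 10 of the 16 fits that omitted 1 mouse (highest adjusted p = 0.164). The summed level of that list had a median of 3619 CPM in the combination group and 3535 CPM in the high-dose semaglutide group, while its median difference was -0.42 log2. None of 19 collagen processing enzymes or 17 matrix proteases and inhibitors was called by edgeR or DESeq2 (5 and 2 at an unadjusted p under 0.05). Without semaglutide mice 3 and 4, 7 collagen chains and 5 matrix glycoproteins were called lower, Col3a1 among them (adjusted p = 0.00918).

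Cell type markers had few calls by edgeR. The 10 stellate cell markers and the 10 activated stellate cell and myofibroblast markers all had negative differences (medians -0.52 and -0.50 log2). Colec11, a collectin of stellate cells, was called lower (-0.66 ± 0.15 log2, adjusted p = 0.00654). DESeq2 called 3 of the stellate cell and 1 of the activated stellate cell markers, all lower. The summed level of the activated stellate markers was 119 to 483 CPM in the combination group and 169.9 to 1114 CPM in the high-dose semaglutide group. In whole liver RNA, fewer cells of a type and less RNA per cell cannot be told apart, and the part of cell numbers in the collagen differences was not tested. Other marker lists had positive medians with no call by edgeR or DESeq2, 0.36 log2 for 11 resident Kupffer cell, 0.17 log2 for 10 cholangiocyte and 0.94 log2 for 6 B and plasma cell markers (2, 0 and 0 at an unadjusted p under 0.05). The 10 sinusoidal endothelial markers were likewise all negative (median -0.26 log2), summing to 259 to 424 CPM against 338 to 456 CPM, and none was called by edgeR or DESeq2 (4 at an unadjusted p under 0.05). Of 21 endothelial genes listed after the values were seen, 7 were lower, against 1.03% of all genes. Among them were the nitric oxide synthase gene Nos3 (-0.78 ± 0.19 log2, adjusted p = 0.0153) and the transcription factor genes Sox7 (-0.81 ± 0.19 log2, adjusted p = 0.0109) and Sox17 (-1.09 ± 0.31 log2, adjusted p = 0.0472). Sox17 was not called without combination mice 4, 5 and 6 (adjusted p = 0.146), and Nos3 and Sox17 were called in 15 and 4 of the 16 fits that left out 1 mouse (highest adjusted p = 0.0504 and 0.113). Antisense genes overlap 32.3% of Nos3 and 16.8% of Sox17 exon bases. Hepatocyte markers summed to 90030 to 137600 CPM against 70770 to 124000 CPM, without a call by edgeR or DESeq2 (4 at an unadjusted p under 0.05).

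Of the immune lists, 1 gene was called, where the share over all genes was 1.89%. Themis, known for its role in thymocyte selection, was at 0.540 to 3.16 CPM in the combination livers and 8.06 to 22.8 CPM in the high-dose semaglutide livers, without overlap (-2.87 ± 0.41 log2, adjusted p = 2.05e-05), and at 19.8 to 47.9 CPM in DIO-MASH vehicle livers. Cd3e, a subunit of the T cell receptor complex, had medians of 1.32 and 1.19 CPM (adjusted p = 0.93), and 5 of 11 T and NK cell markers, Themis included, had negative differences. None of the 11 resident Kupffer cell, 12 lipid-associated macrophage, 8 monocyte and neutrophil, 27 chemokine, 17 interferon-stimulated or 7 MHC class II genes was called by edgeR or DESeq2, with 2, 0, 0, 3, 2 and 0 of them at an unadjusted p under 0.05. The lipid-associated macrophage gene Trem2 had medians of 10.3 and 6.68 CPM (adjusted p = 0.93). Of 22 cell cycle genes none was called by edgeR or DESeq2, with 3 at an unadjusted p under 0.05.

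**Figure D4:**
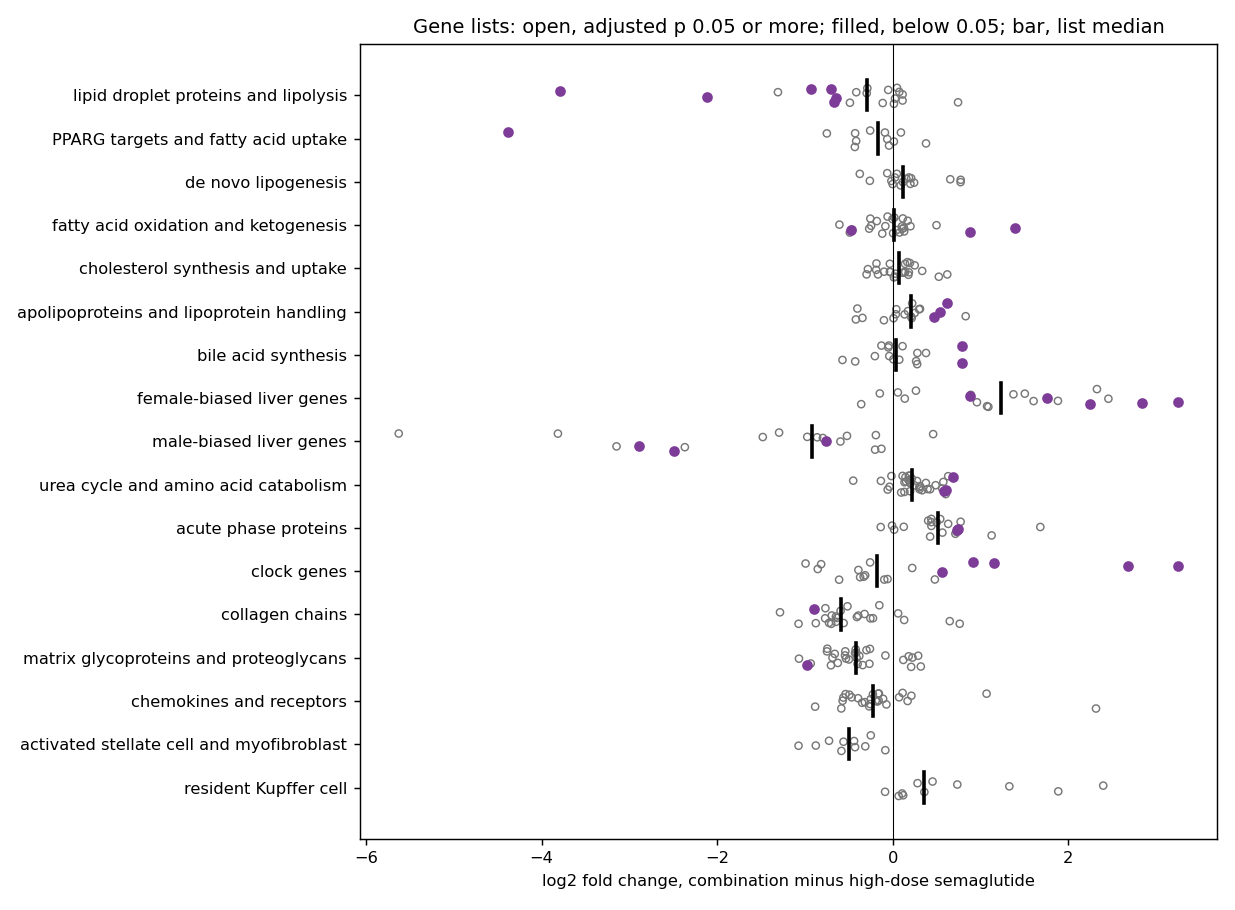
Log2 fold change of combination minus high-dose semaglutide (x axis) for the tested genes of 17 lists (rows), with filled points for genes with adjusted p below 0.05, open points for the others and black bars for list medians. Among these lists the female-biased one has the highest median, 1.23, and the male-biased one the lowest, -0.92, though without high-dose semaglutide mice 3 and 4 the latter is -0.60 and the collagen chains lie lower, at -0.80.

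The DEGs were also counted over 25 alternative settings, some added after the values were seen: 42 genes passed in each of them, 12 higher and 30 lower, and the groups did not overlap in 17 of these. They include Cidea, Cidec, Cfd, Cyp4a12a, Cyp4a12b, Themis, Igfbp3, Col14a1 and Colec11 on the lower side and Cyp39a1, Cyp2b13 and Slc22a26 on the higher. Others on the lower side were the flagellin receptor gene Tlr5 (-1.06 ± 0.18 log2), the G protein subunit gene Gnai1 (-1.30 ± 0.23 log2) and Serpina12, which encodes the adipokine vaspin (-0.88 ± 0.19 log2). The endoplasmic reticulum protease gene Ermp1 was at 35.1 to 57 CPM against 65.1 to 104 CPM, without overlap (-0.77 ± 0.12 log2, adjusted p = 9.24e-05). On the higher side stood the signalling adaptor gene Tab2 (0.56 ± 0.09 log2, adjusted p = 9.24e-05), the pseudokinase gene Nrbp2 (0.70 ± 0.11 log2) and the taurine transporter gene Slc6a6 (0.52 ± 0.11 log2). Tlr5, Gnai1, Serpina12 and Slc6a6 were named after their values were seen.

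The direction of the DEGs was also read in contrasts that share no mouse with this comparison. Of the 266 DEGs, 219 (82.3%) had the sign of chow minus DIO-MASH vehicle, against 63.7% of all 14105 genes. The sign of high-dose zalfermin minus DIO-MASH vehicle was shared by 236 (88.7%), against 64.1%. Both of these contrasts use the same vehicle mice. The sign of low-dose zalfermin minus low-dose semaglutide was shared by 131 (49.2%), against 45.1% of all genes. Across the 14105 genes Spearman's rho was 0.335, 0.362 and -0.105 for the 3 contrasts, given as descriptions since genes are not independent replicates. Serpina1e and Mup14 were lower in the combination group while their chow medians of 6452 and 69.6 CPM lay above those of DIO-MASH vehicle, at 155 and 23.4 CPM.

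**Figure D5:**
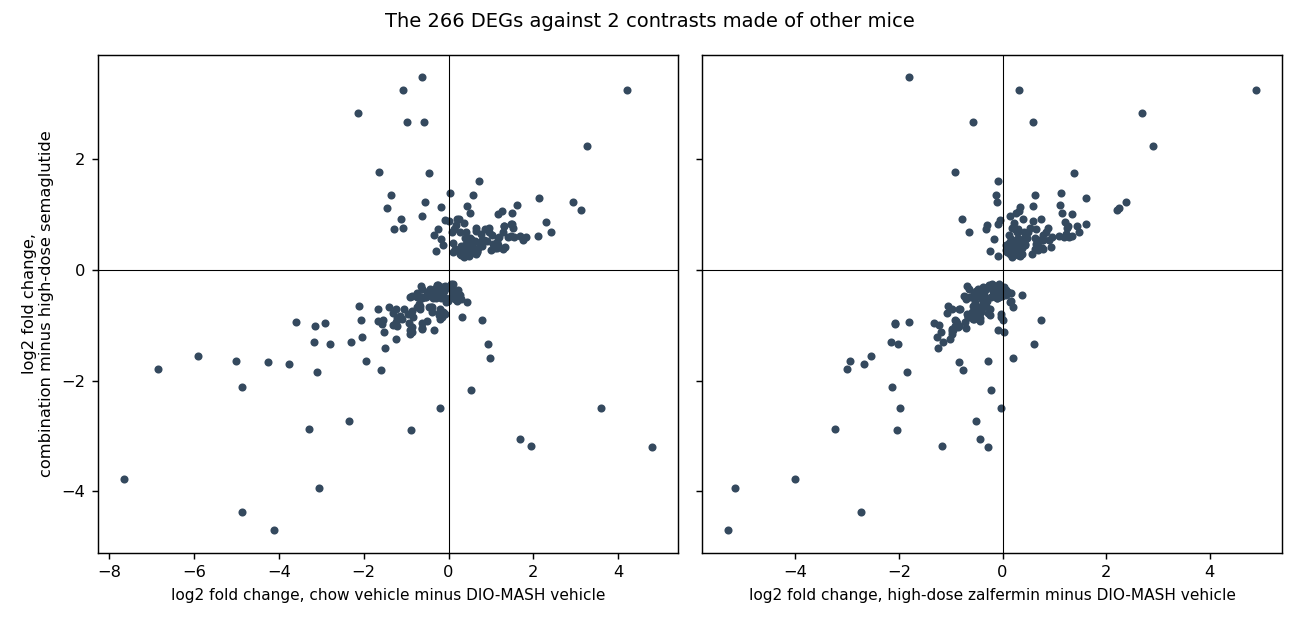
Each point is 1 of the 266 DEGs, with the log2 fold change of combination minus high-dose semaglutide on the y axis and that of chow vehicle (left) or high-dose zalfermin (right) minus DIO-MASH vehicle on the x axis, contrasts made of other mice. In the left panel 219 points and in the right panel 236 points lie in the lower left and upper right quadrants.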

How the data were processed

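RNA of 56 livers (8 mice in each of 7 groups) was sequenced from stranded mRNA libraries. The authors deposited whole-number read counts per gene, without normalization. The study's methods name STAR and the submitters' processing notes name Trim Galore 0.6.4 and Salmon 1.9.0, with GRCm38; which of these made the counts, and whether strand was used, is not given in the sources used here. A low-dose semaglutide mouse that the study excluded is not marked in the labels, so all mice were kept in the main fit. An edgeR fit without low-dose semaglutide mouse 6 was run as an alternative and gave 319 DEGs. Of 21935 genes in the table, 4352 had no read.

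A gene entered the test when at least 3 mice had at least 5 of its reads, and testing used edgeR 4.0.16 (TMM, quasi-likelihood F test, R 4.3.3) in 1 fit of all 7 groups, with Benjamini-Hochberg adjustment over 14105 genes and a threshold of 0.05. CPM are TMM-normalised, and log2 CPM use a prior count of 2. DESeq2 1.42.0 served as an alternative and for variance-stabilised counts. Single values were compared by exact two-sided permutation over the 16 mice. The alternatives also covered size factors, filters, the number runs, the groups fitted and each mouse left out. Replicates are separate animals, numbered in accession order. Genes were named by rule: the 12 largest rises and falls among DEGs of 1 CPM or more, the 5 smallest adjusted p in each direction, called members of the lists, the FGF21 receptor genes, genes of the study's text and cell markers; others are marked as named after their values were seen, and some are not reported here. The members and lists were chosen with earlier results of these data known. Shared windows are 75-base stretches of a gene's transcripts found in another gene of the GRCm38 annotation. The fit was tested on simulated counts.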

Additional observations from a re-analysis of the deposited data

Results flagged for a closer look

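In groups of 8, the gap between the highest or lowest mouse and its nearest neighbour was compared with the range of the group (Dixon's test at the 95% level) for the first 2 principal components and for log2 CPM of each gene named above. Of 182 groups tested, 17 held a mouse apart from the others, and chance gives about 1 in 20. In the combination group these were, with the gap as a share of the range, the first principal component in mouse 3 (highest, 0.569), Cpt1a in mouse 6 (lowest, 0.633), Cyp2b13 in mouse 4 (highest, 0.580), Cyp2c37 in mouse 3 (highest, 0.582), Ermp1 in mouse 3 (lowest, 0.579), Fitm2 in mouse 6 (lowest, 0.665), Serpina12 in mouse 3 (lowest, 0.720) and Slc6a6 in mouse 3 (highest, 0.538). In the high-dose semaglutide group they were Agt in mouse 7 (lowest, 0.545), Atp2b2 in mouse 1 (highest, 0.568), Cd3e in mouse 3 (lowest, 0.557), Clock in mouse 3 (highest, 0.563), Fitm1 in mouse 4 (highest, 0.682), Gnai1 in mouse 7 (highest, 0.567), Gnmt in mouse 7 (lowest, 0.562), Npas2 in mouse 3 (lowest, 0.544) and Serpina3n in mouse 5 (highest, 0.640). Mice 4, 5 and 6 of the combination group, which share high clock gene levels, form a set of 3 that a test of single mice does not pick out.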

How the results depend on the processing

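No paired analysis was run. The labels give no replicate number that links a mouse of one group to one of the other, and mice were numbered in accession order. Most combination mice have a sample number just after that of a high-dose semaglutide mouse, with mice of other groups in the same short runs. These short runs were not used as pairs or blocks, and the part of this layout was not tested. The run of sample numbers entered as a covariate gave 323 DEGs. DEGs numbered 415 (197 higher, 218 lower) with DESeq2, 124 (55 higher, 69 lower) when the fit held only the 16 mice, 74 (22 higher, 52 lower) without combination mice 4, 5 and 6, and 434 (206 higher, 228 lower) without high-dose semaglutide mice 3 and 4; the cause of these shifts was not tested. With each of the 16 mice left out in turn, DEGs ranged over 126 to 357, higher ones over 53 to 176 and lower ones over 68 to 197, with 126 without semaglutide mouse 6, 128 without semaglutide mouse 7 and 144 without combination mouse 6. The shares of DEGs with the sign of chow minus vehicle, high-dose zalfermin minus vehicle and low-dose zalfermin minus low-dose semaglutide ranged over 74.9 to 86.6%, 83.7 to 91.6% and 43.8 to 51.9%. They were 94.6%, 100% and 43.2% without combination mice 4, 5 and 6, and the first 2 were 91.5% and 93.5% without semaglutide mice 3 and 4. The last was 61.8% without low-dose semaglutide mouse 6. The difference on the second component ranged over 10.7 to 12.4 and on the first over 1.61 to 6.02 with 1 mouse left out, and on log2 CPM the second gave 2.44 (exact permutation p = 0.115). Of 2198 fold changes, those of the genes named here under each alternative, 24 changed sign and 330 kept their sign and lost the call. Of genes with a call in the comparison, Cry1 (-0.0459 log2) and Npas2 (-0.22 log2) changed sign without combination mice 4, 5 and 6. Among genes without one, Nr1d1 (0.268 log2) and Trem2 (0.0599 log2) did so without those mice, and Fgfr2 (-0.0375 log2) and Fgfr3 (-0.0208 log2) without semaglutide mice 3 and 4. With 1 mouse left out, Cd36 ranged over -0.119 to 0.0234, Cd3e over -0.134 to 0.296, Fgf21 over -0.384 to 0.109, Fgfr2 over -0.0193 to 0.174, Fgfr3 over -0.0515 to 0.127, Igf1 over -0.0318 to 0.113 and Trem2 over -0.247 to 0.105 log2. In simulated counts of this comparison, 53.7% of 1.5-fold and 95.5% of 2-fold changes were recovered. The changes were placed only in genes above a minimum mean read count, and no outlying mice were simulated. In the data, changes of 1.5-fold and larger may therefore be missed as well as smaller ones.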

Other observations

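Further genes among the largest differences belong to none of the groups described above. Atp2b2, a plasma membrane calcium pump, ran from 0.455 to 20.7 CPM in the combination group and from 0.742 to 2.77 CPM in the high-dose semaglutide group (2.67 ± 0.52 log2, adjusted p = 0.00211), with 8.68, 19.5 and 20.7 CPM in combination mice 4, 5 and 6, and it was not called without them (adjusted p = 0.271). The manganese exporter gene Slc30a10 had medians of 26.1 and 10.8 CPM (1.60 ± 0.37 log2, adjusted p = 0.0118), the vasopressin receptor gene Avpr1a of 23.1 and 8.70 CPM (1.31 ± 0.27 log2, adjusted p = 0.00319) and the interleukin-22 receptor subunit gene Il22ra1 of 5.72 and 2.20 CPM (1.36 ± 0.28 log2, adjusted p = 0.00314). Slc30a10 was at 38.9, 66 and 73.5 CPM in mice 4, 5 and 6. Dhrs9, a retinol and steroid dehydrogenase, was higher as the 1 called gene of 14 steroid and retinoid genes (1.76 ± 0.39 log2, adjusted p = 0.00715). Among 23 genes of glucose and glycogen metabolism, Ppp1r3c, which targets a phosphatase to glycogen, was higher (1.03 ± 0.29 log2, adjusted p = 0.0469, and 0.465 without combination mice 4, 5 and 6). On the lower side, Sdcbp2, a scaffold protein, ran from 0 to 0.682 CPM against 0.443 to 12.7 CPM (-3.94 ± 0.88 log2, adjusted p = 0.00776), and Nrep had medians of 4.86 and 13.8 CPM (-2.17 ± 0.43 log2, adjusted p = 0.00263). Without combination mice 4, 5 and 6, Slc30a10, Avpr1a, Il22ra1, Dhrs9, Sdcbp2 and Nrep were not called either (adjusted p = 0.473, 0.0904, 0.0565, 0.243, 0.0704 and 0.0571), and Slc30a10 and Ppp1r3c were called in 15 and 6 of the 16 fits that omitted 1 mouse (highest adjusted p = 0.056 and 0.157). All 19 tested major urinary protein genes, a set taken by symbol after the values were seen, had negative differences (median -1.05 log2), and Mup14 alone was called by edgeR.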
